A study of Homo sapiens with 12 samples.

Results

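The proteasome genes comprised the 48 rows of the expression table, of 23619 genes, whose symbol is PSM followed by a letter from A to G and a number. Membership followed the symbol alone, though these genes were chosen with earlier results of these data known. They fell into 19 core particle genes (PSMA and PSMB), 20 regulatory particle genes (PSMC and PSMD), 4 activator genes (PSME) and 5 others (PSMF1 and PSMG1 to PSMG4). The study compared compounds that act on CDK9, the kinase that releases paused RNA polymerase II into elongation, in the cell line MOLT4, which is established from human T-cell acute lymphoblastic leukaemia. Poly(A) RNA was sequenced from 12 libraries in 4 groups of 3. Every group was the same cell line treated for 6 h, and no group carried a genetic change named in the labels. The control group received 0.1% DMSO. The other groups received 250 nM of SNS-032, an inhibitor of several cyclin-dependent kinases, 250 nM of THAL-SNS-032, in which SNS-032 is joined to a thalidomide derivative that recruits the ubiquitin ligase cereblon, or 250 nM of NVP-2, an inhibitor of CDK9. Nothing in the labels says that replicates were grown or treated apart, so p-values reflect how far these libraries lie apart, which may be technical variation alone.

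The proteasome degrades proteins tagged with ubiquitin. Its barrel-shaped core particle is built from rings of alpha subunits (PSMA) that gate the entrance and rings of beta subunits (PSMB) that carry the protease sites. The regulatory particle caps the core: its base holds a ring of ATPases (PSMC) that unfold substrates, and its lid holds the deubiquitinase PSMD14. Lymphoid cells also make immunoproteasome beta subunits (PSMB8, PSMB9 and PSMB10), which replace the constitutive catalytic subunits, and the activators PSME1 and PSME2, which open the core in place of the regulatory particle.

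Levels are FPKM, in which fragments are scaled by transcript length; how the libraries were scaled to each other is not given in the sources used here. Changes are differences in log2(FPKM + 1), which understate the change of genes with low FPKM, and were tested with limma over the 11381 genes with a mean of at least 1 FPKM, with Benjamini-Hochberg adjustment and a threshold of 0.05. Of the 48 proteasome genes 46 passed this filter. The thymoproteasome subunit PSMB11 and the testis-type alpha subunit PSMA8 did not: their group means lay between 0.0914 and 0.121 FPKM in all 4 groups. All 12 T-lineage markers examined were at 1 FPKM or more in DMSO, against 2 of 10 markers of other cell types, CD79A and CD68. The T-lineage markers summed to 3696 to 4656 FPKM in DMSO, 745 to 1246 in SNS-032, 1305 to 1449 in THAL-SNS-032 and 638 to 777 in NVP-2, and the markers of other cell types to 13.0 to 13.8, 4.95 to 10.1, 11.3 to 13.2 and 3.77 to 4.42. The monocyte marker CD14 had a mean of 0.413 FPKM in DMSO, 2.08 in SNS-032 and 1.63 in THAL-SNS-032, and the myeloid markers LYZ and MPO had means of 0.272 and 0.127 in DMSO and 1.44 and 1.68 in THAL-SNS-032; their part in the results was not tested. The median gene changed by -1.92 under SNS-032, -1.90 under THAL-SNS-032 and -2.54 under NVP-2 on the deposited scale, on which the added ERCC control RNAs had a median change of -0.03 to 0.04 from their DMSO mean in every library (log2). SNS-032 replicate 1 stood apart, with a median gene change of -2.32 against -1.68 and -1.77 in the other SNS-032 libraries. It was also the lowest of its group for all 46 tested proteasome genes. FPKM values carry no counts, so the depth behind each value is unknown.

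In DMSO the core genes had a median of 528 FPKM, with a range from 132 FPKM (PSMA5) to 1174 FPKM (PSMA6). The regulatory genes had a median of 200 FPKM and ran from 38.1 FPKM for the base chaperone PSMD9 to 418 FPKM for the ATPase PSMC5. The 4 activators, with a median of 583 FPKM, split widely: PSME2 stood at 1018 ± 106 FPKM and PSME1 at 953 ± 73.7 FPKM, whereas PSME4, a large nuclear activator, stood at 29.9 ± 2.81 FPKM (SD, n = 3). PSMF1, an inhibitor of the core, and the core-assembly chaperones PSMG1 to PSMG4 lay between 73.6 and 263 FPKM. The 46 genes together summed to 15913 ± 1368 FPKM in DMSO, 4462 ± 1207 in SNS-032, 5053 ± 361 in THAL-SNS-032 and 2347 ± 239 in NVP-2 (SD, n = 3). These sums were 28.0%, 31.8% and 14.8% of the DMSO mean under the 3 compounds. Per the labels, cells were counted before RNA was isolated and control RNAs were added at lysis, but the labels do not say that the control RNA was set by cell number, so in these bulk libraries fewer cells and less RNA per cell cannot be told apart.

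**Figure D1:**
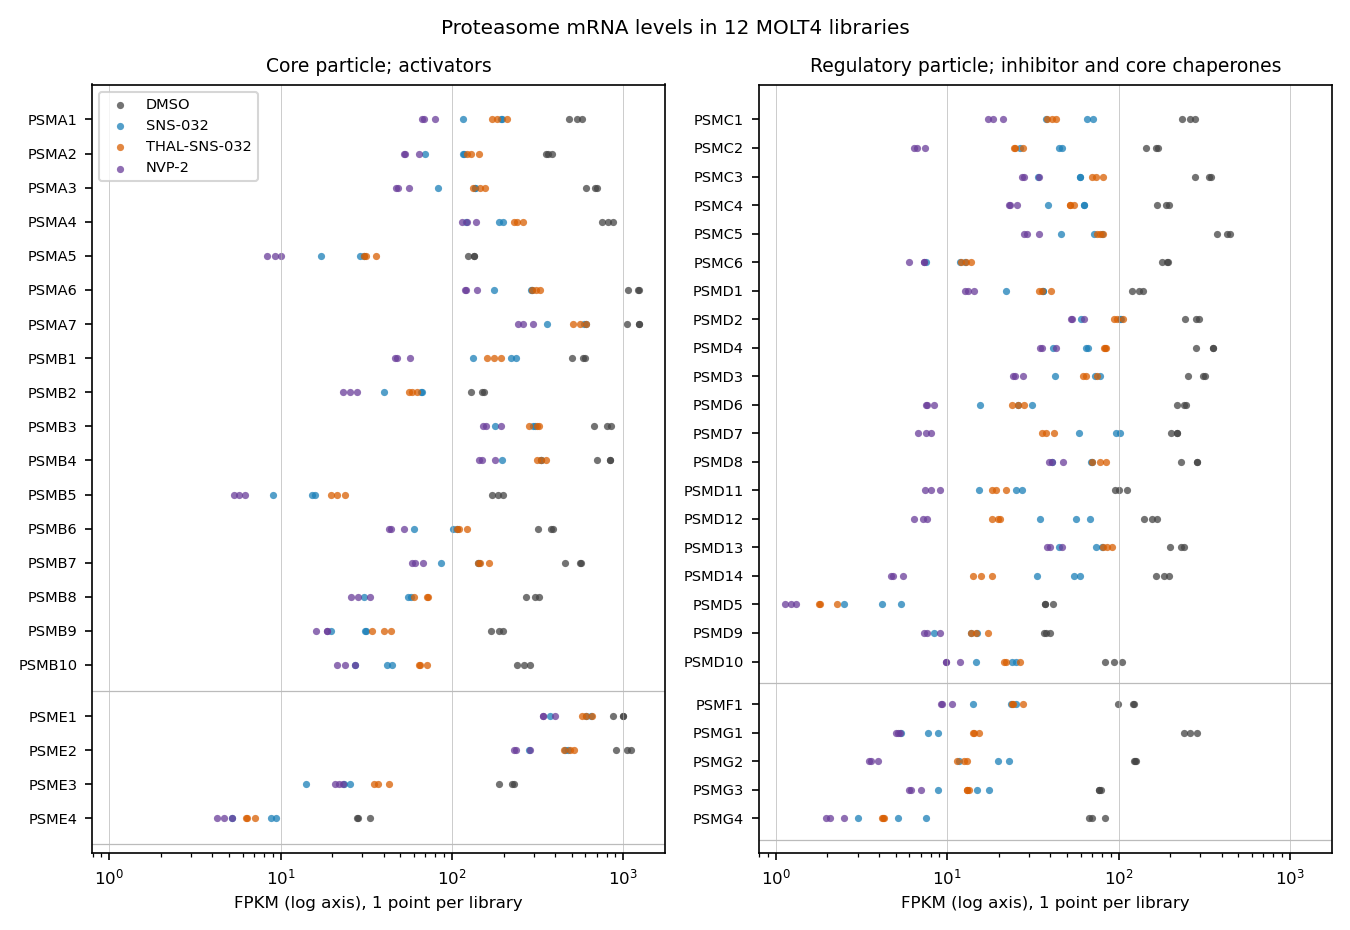
FPKM of the 46 tested proteasome genes on a log axis, with 1 point per library and colours for the 4 groups. The DMSO points lie to the right of all 9 compound-treated points for every gene, and NVP-2 has the lowest mean for 45 of 46 genes.

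All 46 tested proteasome genes were lower than in DMSO after each compound on the deposited scale, but with libraries centred on their medians 19, 25 and 13 of them were called higher under SNS-032, the degrader THAL-SNS-032 and NVP-2 (against 52.6%, 57.2% and 59.7% of all tested genes). That centring put the median gene itself at 0.25, 0.36 and 0.42, so a gene called higher may still lie below the median gene. On the deposited scale 94.6%, 94.8% and 97.1% of all tested genes were called lower under the same compounds, so the count of proteasome genes lies near that background. The fall was at least 2-fold for 45, 45 and 46 genes, against 87%, 84.8% and 94.5% of all genes, and PSME1 was the exception under SNS-032 and THAL-SNS-032. For all 46 genes the DMSO libraries did not overlap those of any compound, as held for 95.9%, 97.2% and 98.2% of all genes. The median change of the proteasome genes was -2.17 under SNS-032, -2.0 under THAL-SNS-032 and -3.32 under NVP-2. Set against the median gene of the same comparison, 29, 28 and 36 of the 46 fell further. The pseudocount understates the fall of genes with low FPKM, so this baseline depends on it. With a pseudocount of 0.1 the median gene changed by -2.19 under SNS-032, -2.14 under THAL-SNS-032 and -2.97 under NVP-2. The main setting gave -1.92, -1.90 and -2.54. The count of genes that fell further is given for the main setting only.

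**Figure D2:**
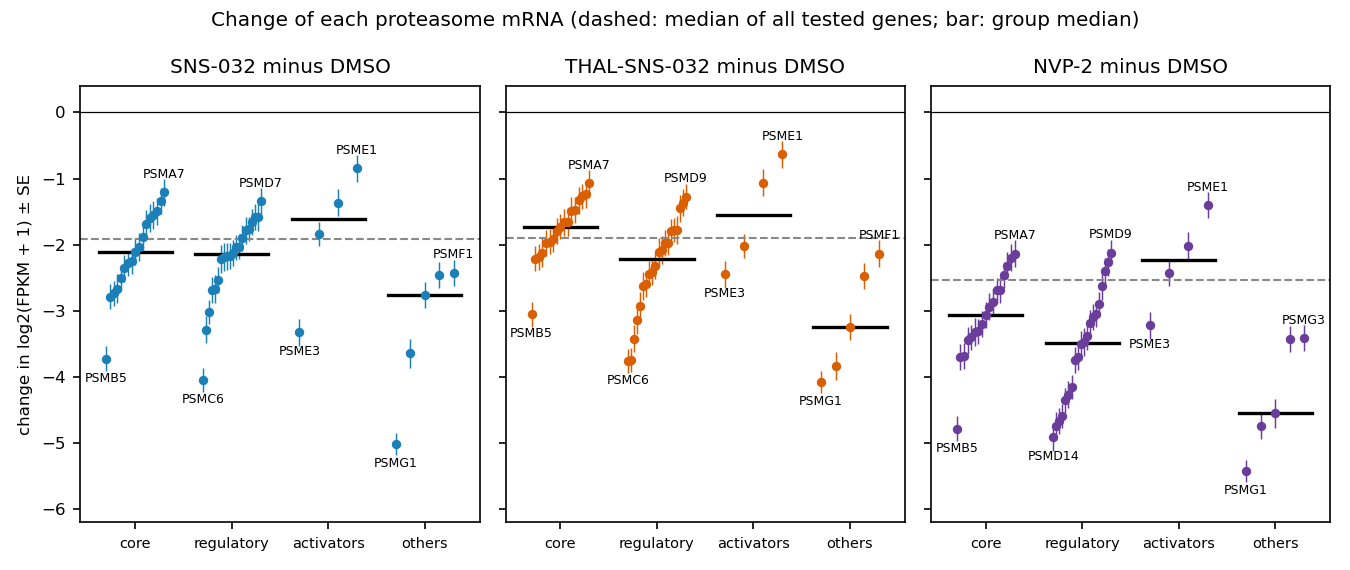
Change in log2(FPKM + 1) from DMSO, ± SE, of each proteasome gene by class, with the class median as a bar and the median of all tested genes as a dashed line. All points lie below 0 on the deposited scale, but many lie above the dashed line, where the fall was smaller than that of the median gene. With libraries centred on their medians some genes were called higher than in DMSO. PSMG1 is the lowest and PSME1 the highest in every panel.

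From lowest to highest, the changes of the proteasome genes had their widest range under SNS-032, from -5.01 for PSMG1 to -0.85 for PSME1. By interquartile range, however, they varied less than all tested genes under each compound. Their interquartile range was 0.966 under SNS-032, 0.805 under THAL-SNS-032 and 1.041 under NVP-2. For all tested genes it was 1.11, 1.257 and 1.304. PSMG1 is a chaperone that starts the assembly of the alpha ring. It measured 240, 263 and 287 FPKM in the 3 DMSO libraries, 5.36, 8.80 and 7.78 in SNS-032, 14.1, 15.4 and 14.3 in THAL-SNS-032, and 5.0, 5.16 and 5.27 in NVP-2. All 9 treated libraries were far below DMSO, and the THAL-SNS-032 libraries were the highest of them. The remaining level was 2.78% ± 0.67, 5.55% ± 0.266 and 1.96% ± 0.052 of the DMSO mean (SD, n = 3), and the change was -5.01, -4.08 and -5.42, each with an SE of 0.17 (limma adjusted p of 1.1e-11, 2.41e-11 and 3.76e-12). PSME1 measured 868, 1001 and 990 FPKM in DMSO, 374, 608 and 648 in SNS-032, 571, 658 and 609 in THAL-SNS-032, and 341, 399 and 340 in NVP-2. It kept 57.0%, 64.3% and 37.8% of its DMSO mean, the highest share of any tested proteasome gene under each compound. Its changes were -0.85, -0.64 and -1.40 (limma adjusted p of 0.000874, 0.00703 and 5.95e-06), and with libraries centred on their medians they became increases of 1.32, 1.62 and 1.56.

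The promoters of these genes, which mark both ends of that range, are shown as the 250 bases before the annotated start, 5′ to 3′ on the strand of the gene, from RefSeq (GRCh38.p14; the expression table was made on hg19). PSME1 lies at chr14:24135944-24136193 on the plus strand and PSMG1 at chr21:39183452-39183701 on the minus strand. Capitals mark the letters TGACNNNGC, the core of the antioxidant response element that the transcription factor NFE2L1 also uses at proteasome genes, and CCAAT, the NF-Y box.
PSME1: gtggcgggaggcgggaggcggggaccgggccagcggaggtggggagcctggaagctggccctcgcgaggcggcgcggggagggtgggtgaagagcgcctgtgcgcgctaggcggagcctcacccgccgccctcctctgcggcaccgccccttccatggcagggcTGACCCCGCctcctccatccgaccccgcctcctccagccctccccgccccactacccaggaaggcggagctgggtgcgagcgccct
PSMG1: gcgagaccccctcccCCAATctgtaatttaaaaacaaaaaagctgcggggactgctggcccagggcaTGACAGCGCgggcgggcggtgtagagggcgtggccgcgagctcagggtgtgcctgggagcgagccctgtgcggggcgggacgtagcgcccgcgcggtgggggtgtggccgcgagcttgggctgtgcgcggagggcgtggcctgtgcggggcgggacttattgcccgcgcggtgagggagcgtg
The gene that fell least and the gene that fell most both hold 1 match to TGACNNNGC, and only PSMG1 of this pair holds CCAAT. Promoters of 42 of the 48 genes were in the table (not PSMA7, PSMB1, PSMB6, PSMB7, PSMD4 and PSMG3). Searched on both strands, TGACNNNGC was in 26.2% of them against 11% of 27305 promoters of the same length, CCAAT in 42.9% against 33%, the ETS-factor letters CCGGAAG in 23.8% against 8.82%, and the full CRE TGACGTCA in 0% against 1.77%. A match describes these letters only.

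Among the alpha subunits PSMA7 kept the most and PSMA3 and PSMA5 among the least. PSMA7 measured 1045, 1233 and 1239 FPKM in DMSO, 359, 609 and 593 in SNS-032, 509, 606 and 558 in THAL-SNS-032, and 261, 296 and 242 in NVP-2. It changed by -1.20, -1.07 and -2.13 (SE 0.20 each, limma adjusted p of 3.9e-05, 0.000127 and 5.25e-08). These falls were smaller than those of the median gene, and with libraries centred on their medians they turned into rises of 0.97, 1.19 and 0.83. PSMA3 measured 602, 698 and 688 FPKM in DMSO, 82.9, 136 and 136 in SNS-032, 133, 156 and 146 in THAL-SNS-032, and 47.0, 56.3 and 48.3 in NVP-2. Its change of -2.51, -2.18 and -3.69 exceeded that of the median gene under all 3 compounds. PSMA1 and PSMA2 kept 31.8% and 27.7% under SNS-032, and PSMA4, PSMA5 and PSMA6 kept 20.9%, 19.4% and 21.6%.

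PSMB5, the catalytic beta subunit with chymotrypsin-like activity and the main target of bortezomib, fell furthest of all 17 tested core genes under each compound. It measured 171, 199 and 186 FPKM in DMSO, 9.09, 16.0 and 15.3 in SNS-032, 19.6, 23.6 and 21.3 in THAL-SNS-032, and 5.32, 6.23 and 5.73 in NVP-2. The 4 groups did not overlap. The changes were -3.72, -3.05 and -4.78 (SE 0.19 each; limma adjusted p of 1.44e-10, 8.06e-10 and 7.87e-12), and 7.27%, 11.6% and 3.11% of the DMSO mean remained. The other catalytic constitutive subunits kept more: PSMB6 (caspase-like) 24.9%, 31.3% and 12.8%, and PSMB7 (trypsin-like) 23.6%, 28.7% and 11.8%. The non-catalytic subunits kept most, with PSMB2 at 39.9%, PSMB4 at 36.3%, PSMB1 at 35.0% and PSMB3 at 33.8% under SNS-032. PSMB1 differed between compounds, with 35.0% ± 9.95 under SNS-032, 31.4% ± 2.96 under THAL-SNS-032 and 9.01% ± 1.03 under NVP-2 (SD, n = 3).

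The 3 immunoproteasome subunits moved as a narrow group, with 14.4% to 16.0% of the DMSO mean left under SNS-032, 21.3% to 25.4% under THAL-SNS-032 and 9.13% to 9.74% under NVP-2. PSMB8, the counterpart of PSMB5, measured 269, 321 and 306 FPKM in DMSO, 30.9, 57.5 and 55.3 in SNS-032, 60.0, 72.7 and 71.5 in THAL-SNS-032, and 28.2, 33.2 and 25.9 in NVP-2. It changed by -2.66, -2.12 and -3.32 (SE 0.22 each; limma adjusted p of 1.46e-08, 1.91e-07 and 6.91e-10). Because each counterpart pair was measured in the same library, its ratio does not change when a whole library is multiplied by a single factor. Quantile normalization, which remaps levels by rank, can change it. The PSMB8 to PSMB5 ratio was 1.61 ± 0.034 in DMSO, 3.54 ± 0.118 in SNS-032, 3.16 ± 0.166 in THAL-SNS-032 and 5.05 ± 0.46 in NVP-2 (SD, n = 3). The PSMB9 to PSMB6 ratio differed the other way, at 0.514 ± 0.023 in DMSO and 0.309 ± 0.017, 0.347 ± 0.028 and 0.385 ± 0.035. The PSMB10 to PSMB7 ratio was 0.50 ± 0.025 in DMSO and 0.306 ± 0.013, 0.443 ± 0.01 and 0.385 ± 0.018. In each pair the DMSO libraries did not overlap any compound. An exact permutation test of 3 against 3 libraries cannot go below p = 0.1, so these ratios are given without a call.

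**Figure D3:**
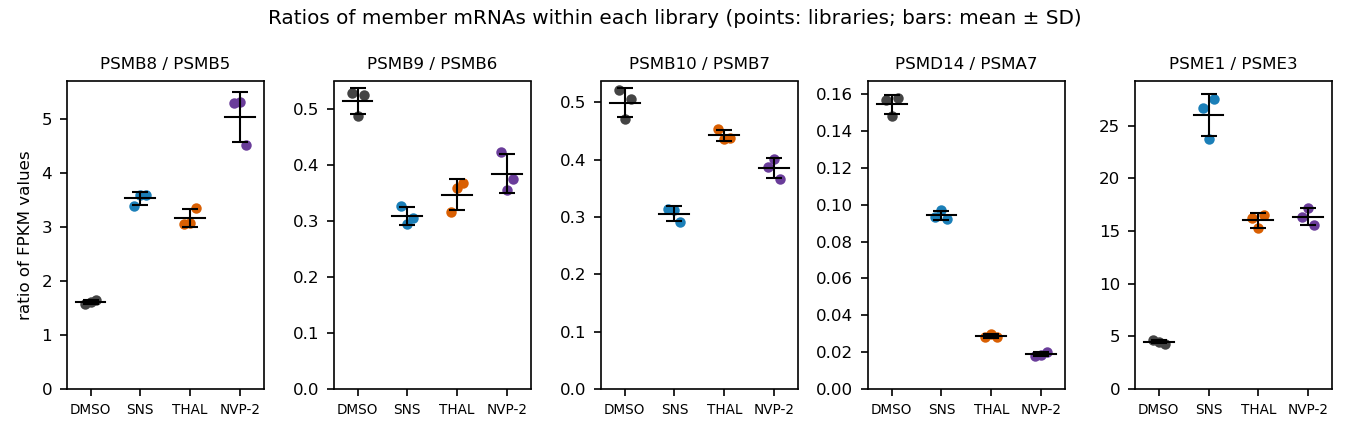
Ratios of FPKM within each library for 5 pairs of proteasome genes, with 1 point per library and mean ± SD bars. DMSO stands apart from the compounds in every panel: the PSMB8 to PSMB5 ratio is higher after treatment (3.54, 3.16 and 5.05 against 1.61), and the PSMB9 to PSMB6 and PSMB10 to PSMB7 ratios are lower.

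In the base of the regulatory particle, the ATPase PSMC6 fell furthest of the 6 ATPases. It measured 179, 190 and 193 FPKM in DMSO, 7.48, 11.8 and 12.7 in SNS-032, 12.9, 13.8 and 12 in THAL-SNS-032, and 5.98, 7.35 and 7.30 in NVP-2, so that the SNS-032 libraries overlapped those of THAL-SNS-032. Its changes were -4.05, -3.76 and -4.59 (SE 0.18 each; limma adjusted p of 4.91e-11, 7.04e-11 and 7.16e-12). PSMC4 lay at the other end, with 29.7%, 28.7% and 12.9% of DMSO left, and PSMC1, PSMC2, PSMC3 and PSMC5 kept 22.5%, 24.7%, 15.9% and 15.7% under SNS-032. PSMC1 has 13 pseudogenes named after it in GENCODE 29, and its level is uncertain where reads were shared. Of the non-ATPase base subunits, the scaffold PSMD2 kept 32.3%, 36.4% and 20.5%, the scaffold PSMD1 24.3%, 28.2% and 10.3%, and the ubiquitin receptor PSMD4 17.3%, 25.2% and 11.4%. The chaperone PSMD5, which holds PSMC subunits before the base is built, had little left: 37.2, 37.2 and 41.5 FPKM in DMSO became 2.51, 5.40 and 4.17 in SNS-032, 1.82, 2.29 and 1.80 in THAL-SNS-032, and 1.13, 1.32 and 1.22 in NVP-2. It changed by -3.02, -3.74 and -4.16, whereas the base chaperones PSMD9 and PSMD10 kept 32.5% and 22.6% under SNS-032.

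Of the lid genes PSMD14, PSMD7 and PSMD12 differed between SNS-032 and THAL-SNS-032. PSMD14, the deubiquitinase that removes the ubiquitin chain as a substrate is engaged, measured 164, 183 and 196 FPKM in DMSO, 33.5, 59.2 and 54.8 in SNS-032, 14.2, 18.2 and 15.7 in THAL-SNS-032, and 4.72, 5.54 and 4.84 in NVP-2. No 2 groups overlapped. Its changes were -1.90, -3.42 and -4.91 (SE 0.20 each; limma adjusted p of 2.47e-07, 4.07e-10 and 8.43e-12). Its lid partner PSMD7 measured 202, 218 and 220 FPKM in DMSO, 58.7, 103 and 96.8 in SNS-032, 35.8, 42.1 and 37.8 in THAL-SNS-032, and 6.73, 8.04 and 7.49 in NVP-2. It changed by -1.34, -2.44 and -4.67. PSMD12, a structural subunit of the lid, measured 141, 156 and 168 FPKM in DMSO, 34.9, 67.7 and 56.1 in SNS-032, 18.3, 20.4 and 19.8 in THAL-SNS-032, and 6.44, 7.61 and 7.18 in NVP-2, and changed by -1.58, -2.92 and -4.27. Under SNS-032 these 3 genes fell less than, or about as much as, the median gene. With libraries centred on their medians they were higher than in DMSO by 0.27 (PSMD14), 0.83 (PSMD7) and 0.59 (PSMD12). The median gene itself lay at 0.25 with this centring. Centred on the median change from DMSO, PSMD14 differed by 0.027 (limma adjusted p 0.656). PSMD6, another structural lid subunit, showed a different order. Its 220, 247 and 240 FPKM in DMSO became 15.5, 31.1 and 26.0 in SNS-032, 25.9, 28.0 and 23.8 in THAL-SNS-032, and 7.56, 8.37 and 7.66 in NVP-2, and it changed by -3.29, -3.14 and -4.74. The lid subunits PSMD3, PSMD8, PSMD11 and PSMD13 kept 21.9%, 22.4%, 22.1% and 29.5% under SNS-032, and 22.7%, 28.9%, 19.3% and 38.4% under THAL-SNS-032.

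The activators also separated. PSME2 kept 39.6%, 47.7% and 24.7%, while PSME3, which forms a nuclear activator of its own, measured 188, 223 and 230 FPKM in DMSO, 14.0, 25.6 and 23.5 in SNS-032, 35.1, 43.2 and 36.8 in THAL-SNS-032, and 20.8, 23.2 and 21.8 in NVP-2. PSME3 was the only tested proteasome gene whose NVP-2 mean was not below the means of both other compounds. It changed by -3.32, -2.45 and -3.22 (SE 0.20 each; limma adjusted p of 7.16e-10, 1.74e-08 and 4.52e-10). The PSME1 to PSME3 ratio within a library was 4.47 in DMSO, 26.0 in SNS-032, 16.0 in THAL-SNS-032 and 16.4 in NVP-2 (means, n = 3), without overlap between DMSO and any compound. PSME4 kept 26.1%, 22.0% and 15.8%. PSMF1 kept 18.4%, 22.0% and 8.49%, and the core chaperones PSMG2, PSMG3 and PSMG4 kept 14.6%, 17.8% and 7.11% under SNS-032. All 4 PSMG genes fell further than the median gene under each compound, with medians of -3.20, -3.54 and -4.65.

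The medians of core and regulatory genes lay close under SNS-032 and apart under the other compounds, while genes within each class spread further. From lowest to highest, changes spanned 2.52, 1.98 and 2.65 in core and 2.71, 2.49 and 2.80 in regulatory genes under the 3 compounds. Roles within a class also differed. Under THAL-SNS-032 the medians were -2.50 for base ATPases, -1.80 for base non-ATPases, -2.38 for the lid and -1.97 for base chaperones. They were -1.73 for alpha, -1.66 for constitutive beta and -2.12 for immunoproteasome subunits. The median change of the 17 core genes was -2.10 under SNS-032, -1.73 under THAL-SNS-032 and -3.06 under NVP-2, and that of the 20 regulatory genes was -2.15, -2.22 and -3.49. The 4 activators had medians of -1.61, -1.54 and -2.23. Regulatory minus core, the difference was -0.04 under SNS-032, -0.49 under THAL-SNS-032 and -0.43 under NVP-2. Computed within each library against the DMSO mean, it was -0.04, 0.02 and -0.07 in SNS-032, -0.53, -0.44 and -0.50 in THAL-SNS-032, and -0.48, -0.42 and -0.38 in NVP-2, against -0.02 to 0.02 in the DMSO libraries. The THAL-SNS-032 and NVP-2 libraries did not overlap DMSO or SNS-032. The DMSO values are centred near 0 by construction, because they are set against the mean of the same libraries. As a score over chosen genes, this difference was not tested. With a pseudocount of 5 the NVP-2 difference shrank to -0.14, and the SNS-032 difference turned to 0.11.

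Subunit levels within each particle were further apart after treatment than in DMSO. Across the 14 constitutive core subunits, the SD of log2 FPKM within a library was 1.02 to 1.05 in DMSO, 1.40 to 1.42 in SNS-032, 1.3 to 1.33 in THAL-SNS-032 and 1.52 to 1.58 in NVP-2. Across the 17 regulatory subunits without chaperones, it was 0.50 to 0.55 in DMSO, 0.77 to 0.79 in SNS-032, 0.94 to 0.98 in THAL-SNS-032 and 1.12 to 1.18 in NVP-2. These ranges did not overlap between any groups for either particle. The PSMA7 to PSMB5 ratio was 6.32 in DMSO and 38.8, 25.9 and 46.3 under the 3 compounds, and the PSMD14 to PSMA7 ratio was 0.155 in DMSO and 0.094, 0.029 and 0.019 (means, n = 3). Across the 46 genes the DMSO level and the change had a Pearson r of 0.26, 0.46 and 0.33 under the 3 compounds, against -0.33, -0.29 and -0.46 across all 11381 genes. Genes of 1 library share its scaling and the DMSO level enters both measures, so these values are descriptions.

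SNS-032 and THAL-SNS-032, which share the SNS-032 part and differ by the linked thalidomide derivative, were compared at the same dose and time, as 1 of 3 pairs of compounds. Of the 46 tested genes 5 were lower under THAL-SNS-032 and 7 higher (limma adjusted p below 0.05), against 16.7% and 13.4% of all tested genes. The 5 lower genes were all regulatory: PSMD14 by -1.52 (SE 0.20, adjusted p 5.11e-05), PSMD12 by -1.34 (SE 0.21, adjusted p 0.000202), PSMD7 by -1.10 (SE 0.20, adjusted p 0.000772), PSMD5 by -0.72 (SE 0.18, adjusted p 0.00904) and PSMC2 by -0.56 (SE 0.20, adjusted p 0.0429). The 7 higher genes were PSMG1 (0.93), PSME3 (0.88), PSMB10 (0.83), PSMB5 (0.67), PSMC3 (0.59), PSMD4 (0.56) and PSMA4 (0.55). Of these 12 calls 7 held whichever of the 12 libraries was left out: PSMD14, PSMD12, PSMD7, PSMD5, PSMG1, PSME3 and PSMB10. PSMB5 lost its call without THAL-SNS-032 replicate 2 or 3 (adjusted p up to 0.0732), and PSMA4, PSMC2, PSMC3 and PSMD4 each lost it under most of these omissions. Without SNS-032 replicate 1, 13 genes were lower and 6 higher, and the median difference went from 0.26 to 0.01. Of all 11381 tested genes, 3424 were lower and 1499 higher in that setting, and their median went from 0.14 to -0.05, so the proteasome counts lay near the background.

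For the remaining 34 genes no difference passed the test with all libraries. Without SNS-032 replicate 1, PSMB1 (-0.37, limma adjusted p 0.0251), PSMC4 (-0.24, adjusted p 0.0475), PSMC1 (-0.72, adjusted p 0.000202) and PSMG2 (-0.75, adjusted p 3.02e-05) were called lower under THAL-SNS-032. So were PSMD11 (-0.40, limma adjusted p 0.0121), PSME4 (-0.42, adjusted p 0.00534), PSMG3 (-0.28, adjusted p 0.0189) and PSMG4 (-0.48, adjusted p 0.0176). Without SNS-032 replicate 2, PSMB8 (0.70, limma adjusted p 0.0303), PSMB9 (0.63, adjusted p 0.0273) and PSMD13 (0.57, adjusted p 0.0473) were called higher. PSMB9 was also called higher without SNS-032 replicate 3 (0.63, limma adjusted p 0.0424). The 95% interval lay within 2-fold in either direction for 36 of the 46 genes, against 76.9% of all tested genes. PSMA7 differed by 0.13 (interval -0.30 to 0.57), PSMB1 by -0.12 (-0.56 to 0.33) and PSMC4 by -0.01 (-0.41 to 0.39), so a 2-fold difference lay outside each interval. For PSMC1 the difference was -0.44 (-0.89 to 0.01) and for PSMG2 -0.48 (-0.90 to -0.05). Among core genes 0 were lower and 3 higher, and among regulatory genes 5 were lower and 2 higher. With libraries centred on their medians 8 of the 46 genes were lower and 33 higher, against 23.1% and 51.2% of all genes.

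**Figure D4:**
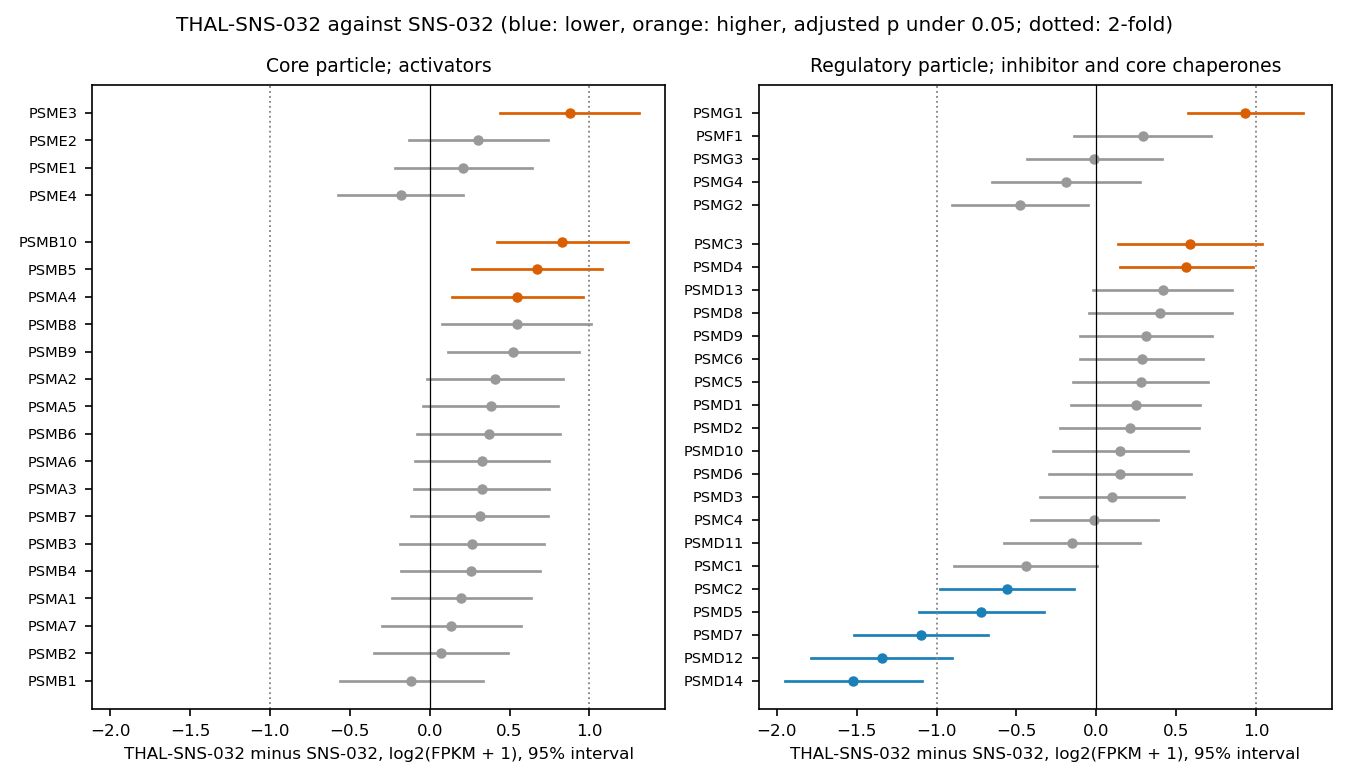
Difference in log2(FPKM + 1), THAL-SNS-032 minus SNS-032, with 95% intervals for 46 proteasome genes, on the deposited scale; dotted lines mark 2-fold. PSMD14, PSMD12 and PSMD7 lie beyond the 2-fold line on the low side, and most intervals, 36 of 46, lie between the dotted lines; 33 genes become higher with libraries centred on their medians.

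Against NVP-2, 44 of 46 proteasome genes were higher under THAL-SNS-032 and 0 lower, compared with 70% and 0.993% of all tested genes. The largest difference was that of PSMD7, 2.23 (SE 0.20, limma adjusted p 2.35e-06), followed by PSMB1 at 1.78. PSMD5 (0.42, adjusted p 0.0556) and PSME4 (0.41, adjusted p 0.0586) did not pass. The median difference was 1.19 for the proteasome genes and 0.64 for all tested genes. SNS-032 against NVP-2 gave 42 higher and 0 lower, compared with 52.6% and 0.782% of all genes, with a median of 0.94 against 0.48. The differences of 3 lid genes were the largest: PSMD7 by 3.33 (SE 0.20, limma adjusted p 8.28e-09), PSMD14 by 3.02 (SE 0.20, adjusted p 2.27e-08) and PSMD12 by 2.69 (SE 0.21, adjusted p 8.37e-08), then the ATPase PSMC2 by 2.33. PSMA4 (0.41), PSMD8 (0.45), PSMG1 (0.41) and PSME3 (-0.10) did not pass. Without SNS-032 replicate 1, PSMA4 (0.63, adjusted p 0.000153), PSMD8 (0.71, adjusted p 0.000253) and PSMG1 (0.59, adjusted p 9.55e-05) did, by limma. Leaving out each library in turn gave 29 to 45 higher genes. The 29 came without SNS-032 replicate 2 or 3, where 4553 and 4586 of all 11381 tested genes were higher. The comparisons among compounds share libraries, so their values are given side by side. Centring the libraries on their medians left 24 higher and 13 lower for SNS-032 against NVP-2, against 24.8% and 58.9% of all genes.

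Genes that work with the proteasome were examined as 4 lists chosen for their known roles, with earlier results of these data known. Of the proteins bound to it or helping to build it, 9 of 10 were tested and all 9 were lower than in DMSO under each compound, as were 94.6%, 94.8% and 97.1% of all tested genes, but 4, 3 and 2 of them were called higher under the 3 compounds in that order with libraries centred on their medians, against 52.6%, 57.2% and 59.7% of all tested genes. The chaperone of the core, POMP, went from 278 ± 9.53 FPKM in DMSO to 54.2 ± 15.7, 76.2 ± 6.8 and 27.0 ± 3.49. The ubiquitin receptor ADRM1 (-1.18), the proteasome-bound thioredoxin-like TXNL1 (-0.94) and AKIRIN2 (-2.37), a factor for nuclear import of proteasomes, were lower under THAL-SNS-032 than under SNS-032, and the base chaperone PAAF1 was higher (0.74). AKIRIN2 measured 21.5, 21.4 and 22.9 FPKM in DMSO, 6.38, 11.7 and 10.9 in SNS-032, 1.10, 0.967 and 0.949 in THAL-SNS-032, and 0.462, 0.392 and 0.344 in NVP-2, with no overlap between groups.

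NFE2L1, the transcription factor that raises proteasome genes when proteasome activity is low, measured 69.2, 79.9 and 87.7 FPKM in DMSO, 9.60, 17.7 and 15.1 in SNS-032, 13.0, 14.3 and 13.0 in THAL-SNS-032, and 2.45, 2.60 and 2.52 in NVP-2. It changed by -2.43, -2.46 and -4.50. Of the 8 genes listed with it 7 were tested: 6 were lower and 1 higher under SNS-032, and all 7 were lower under the other compounds, whereas 5, 2 and 3 were called higher under the 3 compounds in that order with libraries centred on their medians. Of all tested genes, 94.6%, 94.8% and 97.1% were lower under the 3 compounds, 1.54% were higher under SNS-032, and 52.6%, 57.2% and 59.7% were higher after centring. The higher gene of this list was MAFG, a small MAF partner of NFE2L1, which measured 14.4, 16.4 and 17.1 FPKM in DMSO, 15.8, 28.2 and 26.1 in SNS-032, 10.2, 11.6 and 10.5 in THAL-SNS-032, and 3.54, 4.31 and 3.74 in NVP-2. Its SNS-032 libraries overlapped DMSO, its change was 0.48 (SE 0.19, limma adjusted p 0.024), and it lost its call without DMSO replicate 1 (0.42, adjusted p 0.0872), SNS-032 replicate 2 (0.33, adjusted p 0.102) or SNS-032 replicate 3 (0.39, adjusted p 0.0942). Between THAL-SNS-032 and SNS-032, 4 of the 7 were lower, among them NFE2L2 (-1.37) and MAFG (-1.01), against 16.7% lower and 13.4% higher of all tested genes. The 6 ubiquitin and E1 enzyme genes and the 11 shuttle and p97 genes were all lower than in DMSO under every compound, but with libraries centred on their medians 4, 3 and 3 ubiquitin and E1 genes and 5, 6 and 5 shuttle and p97 genes were called higher, against the same shares of all tested genes as for the lists above. ZFAND5, a ubiquitin-binding activator of the proteasome, was lower under THAL-SNS-032 than under SNS-032 (-1.59, limma adjusted p 3.06e-05). VCP, the p97 segregase, was higher by 0.58 (95% interval 0.15 to 1.00), with a limma adjusted p of 0.0407, near the threshold.

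Some proteasome genes lie together in the genome, by the order of genes in RefSeq. PSMB8 and PSMB9 on chromosome 6 are separated by TAP1 alone, and they kept 16.0% and 14.9% of the DMSO mean under SNS-032, 22.8% and 21.3% under THAL-SNS-032 and 9.74% and 9.58% under NVP-2. PSME1 and PSME2 on chromosome 14 are separated by EMC9 and kept the 2 highest shares of the 4 activators. PSMB5 and PSMB11 are direct neighbours on chromosome 14, at 185 ± 13.7 and 0.103 ± 0.001 FPKM in DMSO (SD, n = 3). Of the 48 genes 12 have pseudogenes named after them in GENCODE 29, 32 in all (PSMD7 and PSMD12 have 1 each), and 4 (PSMA3, PSMB8, PSMD6 and PSMG3) have a named antisense gene. Whether reads were counted by strand is not given in the sources used here, so the levels of these genes are uncertain to that extent.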

How the data were processed

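Poly(A) RNA of 12 MOLT4 libraries was analysed from a single gene table. The authors deposited FPKM values; per the submitters' processing notes HISAT and Cufflinks 2.0.0 were used with build hg19. The annotation and the method behind the normalization of the table are not given in the sources used here. Per the labels, cells were counted before RNA isolation and ERCC control RNAs were added at lysis. The table held 23713 entries: 92 ERCC entries and 2 repeats of date-like gene names were set aside (for a repeated name the entry with the higher mean was kept), which left 23619 genes. Columns were matched to groups through the sample descriptions.

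The deposited scale was kept, and values were transformed to log2(FPKM + 1). Genes with a mean of at least 1 FPKM over all libraries (11381) were fitted with limma 3.58.1 in R 4.3.3 with an intensity trend, the 4 groups in 1 model (8 residual degrees of freedom), and Benjamini-Hochberg adjustment over all tested genes within each of 6 comparisons. Each compound was compared with DMSO, and the compounds with each other. The fit was run on simulated data in which few genes changed and no library was shifted as a whole. In the real libraries most genes changed, so that run does not show how the fit performs here. The labels share replicate numbers across groups, and the closing section gives the check of pairing. FPKM values give no depth, and 3 libraries per group limit the precision. Alternatives changed the pseudocount, the filter, the scaling, the fit and the libraries used.

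The proteasome genes, their classes and the lists of related genes were chosen with earlier results of these data known. Every proteasome gene could be named, by role; of each related list, the gene with the highest DMSO level and up to 3 with the largest change per comparison. POMP falls outside this rule and was chosen after its values were seen. The promoters shown belong to the genes with the smallest and largest fall in the comparison with the widest range.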

Additional observations from a re-analysis of the deposited data

How the results depend on the processing

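Counts of proteasome genes called lower than in DMSO kept within 1.5 times of 46 except under rescalings that move the median gene near or above 0. These were centring on library medians, centring on the median change from DMSO, and quantile normalization. Under the last 2 of them NVP-2, with 35 lower, still kept within it. Centring on library medians moved the median change of all genes to 0.25, 0.36 and 0.42 under the 3 compounds. Rescaling to equal ERCC medians left all 46 lower under each compound, with the median gene at -1.94, -1.90 and -2.55. With libraries centred on their medians, centred on the median change from DMSO (added after seeing the data), and quantile-normalized, 18, 27 and 29 genes were lower and 19, 13 and 9 higher under SNS-032, 15, 23 and 29 lower and 25, 16 and 11 higher under THAL-SNS-032, and 27, 35 and 35 lower and 13, 8 and 8 higher under NVP-2. Of all 11381 tested genes, 3537, 4726 and 4700 were lower and 5989, 4655 and 4726 higher under SNS-032. Under THAL-SNS-032 3319, 4771 and 4456 were lower and 6515, 4767 and 5228 higher. Under NVP-2 3198, 4856 and 4393 were lower and 6789, 4831 and 5365 higher. In the same order, THAL-SNS-032 against SNS-032 gave 8, 9 and 11 lower and 33, 28 and 29 higher, THAL-SNS-032 against NVP-2 gave 2, 2 and 5 lower, and SNS-032 against NVP-2 gave 13, 3 and 16 lower, with 24 higher under the first and the last. For all tested genes THAL-SNS-032 against SNS-032 gave 2629, 3086 and 2938 lower and 5822, 4780 and 5912 higher. THAL-SNS-032 against NVP-2 gave 4327, 3630 and 4050 lower. SNS-032 against NVP-2 gave 6706, 5151 and 6136 lower, with 2819 and 3311 higher under the first and the last. For THAL-SNS-032 against SNS-032, 4 genes were higher with no filter and 3 when only the 6 libraries of the pair were fitted. Of all genes, 1530 of 23619 and 507 of 11381 were higher in these settings. Leaving out each library in turn gave 4 to 13 lower and 3 to 10 higher. The 13 came without SNS-032 replicate 1, where 3424 of all 11381 tested genes were lower.

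Regulatory minus core, the SNS-032 value turned to 0.11 with a pseudocount of 5 and to 0.28 after quantile normalization, and was -0.11 with no filter. The THAL-SNS-032 value was -0.37, -0.33 and -0.55 under the same settings, and the NVP-2 value -0.14, -0.33 and -0.56, and -0.50 with a pseudocount of 0.1. With no filter the core class gained PSMA8 and PSMB11.

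Of the single-gene changes from DMSO given above, those called and then turned in sign did so under rescaling. Centred on library medians, SNS-032 gave 0.97 for PSMA7, 0.59 for PSMD12, 0.27 for PSMD14, 0.83 for PSMD7 and 1.32 for PSME1; THAL-SNS-032 gave 1.73 for MAFG, 0.073 for PSMA3, 1.19 for PSMA7, 0.14 for PSMB8 and 1.62 for PSME1; NVP-2 gave 1.16 for MAFG, 0.83 for PSMA7 and 1.56 for PSME1. Centred on the median change, SNS-032 gave 0.72 for PSMA7, 0.34 for PSMD12, 0.027 for PSMD14, 0.58 for PSMD7 and 1.08 for PSME1, THAL-SNS-032 gave 1.38 for MAFG, 0.83 for PSMA7 and 1.27 for PSME1, and NVP-2 gave 0.74 for MAFG, 0.41 for PSMA7 and 1.14 for PSME1. Quantile-normalized, SNS-032 gave 0.19 for PSMA7, 0.37 for PSMD12, 0.010 for PSMD14, 0.47 for PSMD7 and 0.54 for PSME1, THAL-SNS-032 gave 1.62 for MAFG, 0.22 for PSMA7 and 0.67 for PSME1, and NVP-2 gave 1.13 for MAFG, 0.0040 for PSMA7 and 0.79 for PSME1. Differences between compounds that had not passed were called lower after rescaling. In the order of median-centring, centring on the median change and quantile normalization these were PSMD5 (-0.29, -0.22 and -0.11) and PSME4 (-0.29, -0.23 and -0.36) for THAL-SNS-032 against NVP-2, and PSMA4 (-0.38, -0.21 and -0.39) and PSMG1 (-0.38, -0.20 and -0.43) for SNS-032 against NVP-2, with PSMD8 at -0.34 and -0.32 under the first and the last. Small uncalled differences (PSMA7, PSMB1 and PSMC4 for THAL-SNS-032 against SNS-032, PSME3 for SNS-032 against NVP-2) also turned sign under single settings or omissions.

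Libraries with the same replicate number deviated together (correlation above 0.1) in 1 of 18 pairs, with a range from -0.15 to 0.17. A correlation over genes leaves out a shift shared by a whole library, so it cannot decide whether the numbers pair the libraries. Replicate 1 had the lowest library median of log2(FPKM + 1) in every group: 4.77 in DMSO, 2.23 in SNS-032, 2.53 in THAL-SNS-032 and 1.80 in NVP-2. In THAL-SNS-032 replicate 3 was close to it, at 2.54. With the replicate number as a block, THAL-SNS-032 against SNS-032 gave 7 lower and 10 higher, THAL-SNS-032 against NVP-2 46 higher and SNS-032 against NVP-2 45 higher, and 46 genes stayed lower than in DMSO under each compound.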
